A study of Mus musculus with 4 samples.

Results

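Cells receive neurotransmitters through ligand-gated channels, which open when the transmitter binds, and through G protein-coupled receptors, which act on enzymes and channels by way of G proteins. This report describes 71 genes of these kinds among the 11258 genes measured in cultured sensory neurons that received a virus carrying human PROM1 or a control virus. The rule took the genes by symbol alone, with no use of their values, but it was chosen with earlier results of these data known. They comprise the listed subunits of GABA-A receptors (6 genes), GABA-B receptors (2), the AMPA (2), kainate (4) and NMDA (3) classes of glutamate channel, metabotropic glutamate receptors (5), nicotinic acetylcholine receptors (5), serotonin receptors (4), protease-activated receptors (2) and genes with a numbered Gpr symbol (38). The Gpr group is mixed. Some of its members have known ligands, others such as Gpr89 and Gpr107 are known as proteins of the Golgi apparatus, and Gpr137b-ps is a pseudogene. Grin1os, counted with the NMDA class by its symbol, is named as the opposite-strand gene of Grin1.

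In sensory ganglia, GABA-B receptors sit on the central endings of the axons and reduce transmitter release. GABA-A channels there depolarise the endings because these neurons keep a high internal chloride level. Kainate receptors and the serotonin-gated channel 5-HT3 are known from nociceptors, the neurons that report damage. Protease-activated receptors are cut by thrombin or related proteases, and the new end of the receptor then serves as its own ligand.

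PROM1, also called CD133 or prominin 1, is a glycoprotein found in protrusions of the cell membrane, where it binds cholesterol. The 2 PROM1 libraries came from cultures given a lentivirus for overexpression of human PROM1, and the 2 control libraries from cultures given control pLKO lentivirus. In both groups the neurons were dissociated from dorsal root ganglia (DRG) of mouse embryos at day 13.5. They were grown with fluorodeoxyuridine and uridine, which act against dividing cells. Virus was added on day 2 in vitro, and the labels give day 5 in vitro for replating and for RNA from cultured neurons. The series text calls the samples of each condition biological duplicates, and the sources used here do not state the strain, the sex or the number of embryos per culture. PROM1 levels were not analysed here. These are bulk cultures, so fewer cells of a type and less RNA per cell cannot be told apart.

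Library FPKM values, which scale fragments to the length of the transcript and the size of the library, summed to 356985 and 378582 in the PROM1 libraries and to 359657 and 384213 in the control libraries. Of 15 sensory neuron markers, 14 were in the table, and those of the neuronal cytoskeleton were abundant in all 4 libraries. Peripherin (Prph) was at 894 and 1253 FPKM in PROM1 libraries and 909 and 1065 FPKM in control libraries. Summed over the listed markers, Schwann and satellite glia genes came to 364 and 365 FPKM in PROM1 libraries and 361 and 317 FPKM in control libraries, most of it Ngfr, which neurons also express. Sox10, the defining glial factor, was between 0.706 and 1.75 FPKM. Across genes, Pearson's r between libraries on the log2 scale ran from 0.902 to 0.945, and the PROM1 pair (0.917) and the control pair (0.924) were no closer than some pairs across groups.

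For most tested receptor genes the libraries of the groups overlapped (38 of 61, against 6670 of all 10108 tested genes), and none passed the test. FPKM was summed over the listed transcripts of each gene, and the 61 receptor genes that averaged 1 FPKM or more were tested with limma on log2(FPKM + 1), within a fit over 10108 genes. All fold changes given as log2 are on that scale, PROM1 minus control, which understates the change of low genes. No receptor gene had an adjusted p under 0.05 (limma, Benjamini-Hochberg). Their adjusted p-values ran from 0.939 to 0.998, and 0.0198% of all tested genes (2 genes) passed. At an unadjusted limma p under 0.05 there were 7 receptor genes (11.5%), against 4.70% of all tested genes. Of these, 4 were higher (F2r, F2rl2, Gpr83 and Chrnb1) and 3 were lower (Gabbr1, Grm4 and Htr3a) in PROM1 cultures. Chrnb1 averaged 1 FPKM or more in the PROM1 group alone, so the filter on level favoured its difference. With 2 libraries a group, the smallest two-sided p of an exact permutation test is 0.333.

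By group means, 23 tested receptor genes were higher and 38 lower in PROM1 cultures. The median log2 change was -0.09, against -0.03 for all tested genes, and the median absolute change was 0.23 in both sets. Without PROM1 library 2 the median of the receptor genes was 0.03. For 10 tested receptor genes (16.4%) the lower PROM1 library exceeded the higher control library, against 16.5% of all tested genes. For 13 receptor genes (21.3%) the higher PROM1 library was under the lower control library, against 17.5% of all tested genes. These shares are near the background. Chrnb1 and Chrna4 among the 10, and Gpr173 and Grm5 among the 13, met the filter on level through their higher group alone. PROM1 library 2 had the lowest value of the 4 libraries for 23 tested receptor genes (37.7%), as it had for 35.5% of all tested genes.

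**Figure D1:**
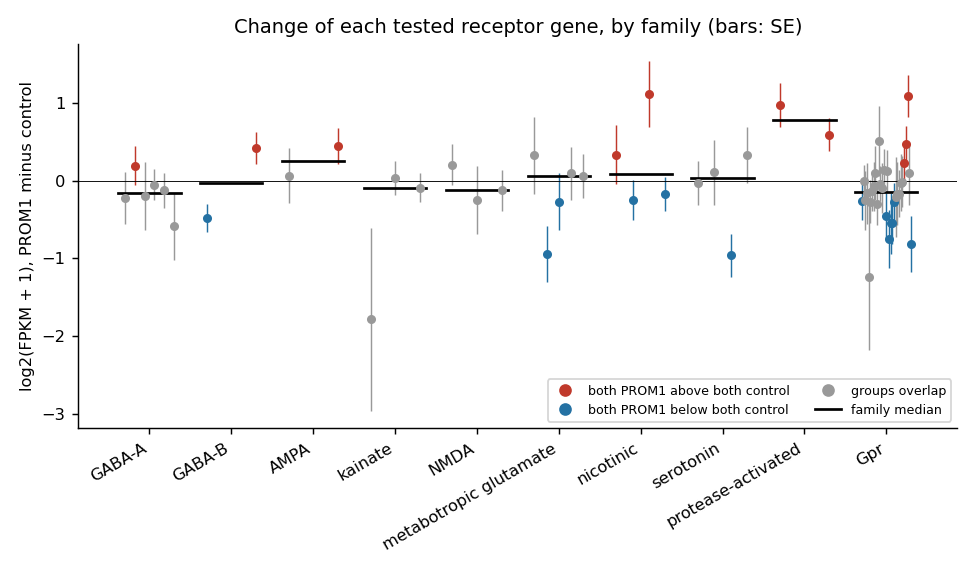
Log2 change of each tested receptor gene, PROM1 minus control, on the log2(FPKM + 1) scale (vertical axis) by receptor family (horizontal axis). Points are genes, bars are standard errors (SE) from limma, black lines are family medians, and colour shows whether the libraries of the groups overlap. The 2 protease-activated receptors lie above 0, as do the 2 AMPA subunits, of which Gria3 is close to it. The families with more than 2 members scatter around 0.

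In the authors' deposited table, which holds 1 comparison per transcript, 2 of the 90 transcripts of these genes had a q-value under 0.05, those of F2r and Gpr162, against 0.126% of all 14236 transcripts. A p-value under 0.05 was given there for 8 of the 90, against 4.71% of all transcripts. The 4 higher ones in the authors' deposited table were F2r, F2rl2, Gabbr2 and 1 of the Gria3 transcripts, and the 4 lower ones included Gpr162, Grm4 and Htr3a.

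The ordering of the genes by level was clear at the top only. Gpr137, a protein of the lysosomal membrane in human cells, was the most abundant, with 151 and 97.2 FPKM in PROM1 libraries and 167 and 128 FPKM in control libraries. The kainate receptor subunit Grik5 followed with 79.6 and 71.0 FPKM in PROM1 libraries and 84.6 and 75.5 FPKM in control libraries. The 4 values of each of these genes lay above all values of every other receptor gene. The next in order of the mean over all 4 libraries were Gabbr2 (44.7 FPKM), Htr1b (40.1 FPKM), F2r (35.9 FPKM), Gabbr1 (35.4 FPKM), Grin1 (31.4 FPKM) and Gpr12 (27.3 FPKM), and the ranges of neighbours in that order overlapped.

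**Figure D2:**
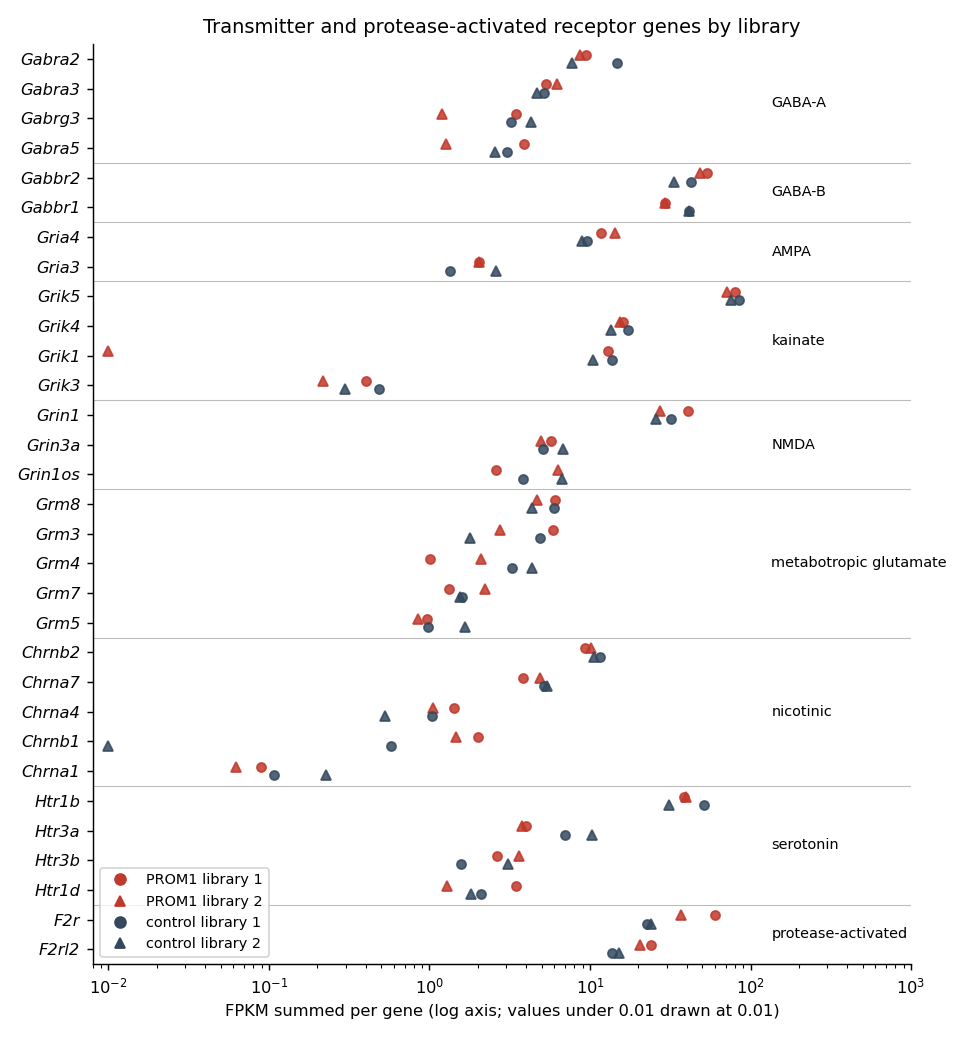
FPKM summed per gene on a log axis (horizontal) for 31 of the 33 genes outside the Gpr group (rows, by family). Red points are PROM1 libraries, drawn above the dark points of control libraries, circles are libraries numbered 1 and triangles libraries numbered 2, and values under 0.01 are drawn at 0.01. Red and dark points separate for 14 of the 31 genes, among them F2r, F2rl2, Gabbr1, Gabbr2 and Htr3a, and interleave for the others, and PROM1 library 2 stands alone at the left for Grik1.

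Both listed protease-activated receptors were higher in PROM1 cultures in all libraries. F2r, the thrombin receptor PAR1, had 60.3 and 36.6 FPKM in PROM1 libraries, against 22.7 and 24.1 FPKM in control libraries. F2rl2, or PAR3, which on mouse platelets acts as a cofactor for thrombin cleavage of PAR4, had 24.1 and 20.6 FPKM in PROM1 libraries and 13.7 and 15.2 FPKM in control libraries. The control libraries lay close together for both genes, and the 2 PROM1 libraries differed most for F2r, with library 1 the higher.

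The log2 change of F2r was 0.98 ± 0.28 (SE), with an unadjusted limma p of 0.0154. That of F2rl2 was 0.59 ± 0.21, with an unadjusted limma p of 0.033, and neither passed after adjustment (limma adjusted p = 0.939 for both). Without PROM1 library 2 the change of F2r was 1.33, and without PROM1 library 1 it was 0.63. In the authors' deposited table F2r stood at 58.5 FPKM in the PROM1 group and 28.6 FPKM in the control group, with a q-value of 0.0395. F2rl2 stood at 24.6 FPKM against 15.6 FPKM in the authors' deposited table, with a p-value of 0.0287 and a q-value of 0.865. The ratio of F2r to F2rl2, both per length, was 2.50 and 1.78 in PROM1 libraries and 1.65 and 1.59 in control libraries, so F2r was the more abundant of the pair in every library.

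Of the 9 fibroblast markers listed, 4 were in the table and the others were not analysed here. Col1a1 was at 3.33 and 4.28 FPKM in PROM1 libraries and 0.545 and 1.24 FPKM in control libraries. Col1a2 was at 1.32 and 2.34 FPKM against 0.302 and 0.694 FPKM, whereas the groups overlapped for Fbln1 and Postn. None of the 3 tested ones passed (limma adjusted p = 0.939 for Col1a1 and Col1a2 and 0.977 for Fbln1), and both collagen genes averaged 1 FPKM or more in the PROM1 group alone. Summed, the 4 markers came to 7.94 and 10.0 FPKM in PROM1 libraries and 3.01 and 4.72 FPKM in control libraries. None of the 4 was at 0 in every library, and Postn was under 0.01 FPKM in PROM1 library 1. Col1a1, Col1a2 and Postn were higher in PROM1 library 2 than in PROM1 library 1, whereas Fbln1 was lower there (1.85 against 3.29 FPKM). The part of fibroblasts in the receptor values was not tested.

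The promoters of the 2 protease-activated receptor genes are shown because the genes lie close together and differed in the same direction. In the RefSeq annotation of GRCm38.p6 they lie on chromosome 13 with 1 protein-coding gene between them. The sequences are the 300 bases around the RefSeq start, 5′ to 3′ on the strand of the gene, and capitals mark GC boxes (GGGCGG on either strand). That of F2r is chr13:95618417-95618716 on the minus strand and that of F2rl2 is chr13:95696670-95696969 on the plus strand.
F2r: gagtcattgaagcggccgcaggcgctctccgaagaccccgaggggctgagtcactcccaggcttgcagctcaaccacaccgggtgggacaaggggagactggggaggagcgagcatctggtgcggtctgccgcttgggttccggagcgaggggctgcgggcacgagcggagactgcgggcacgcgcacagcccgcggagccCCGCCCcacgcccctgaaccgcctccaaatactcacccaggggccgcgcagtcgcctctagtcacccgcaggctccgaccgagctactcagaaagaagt
F2rl2: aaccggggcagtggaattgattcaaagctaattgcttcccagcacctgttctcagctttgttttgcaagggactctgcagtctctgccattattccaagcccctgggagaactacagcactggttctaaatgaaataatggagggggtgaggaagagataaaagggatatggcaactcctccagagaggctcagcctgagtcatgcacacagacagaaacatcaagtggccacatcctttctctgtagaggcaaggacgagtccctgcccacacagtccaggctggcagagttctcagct
The F2r promoter is 68.7% G and C and holds 1 GC box, whereas that of F2rl2 is 50.7% G and C and holds none. The median over all promoters in the RefSeq table is 52.7%. Neither window held the TATA box TATAAA, the E-box CACGTG or the cAMP response element TGACGTCA on either strand.

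The GABA-B receptor works as a pair of unlike subunits, of which Gabbr1 binds GABA and Gabbr2 couples to the G protein and carries Gabbr1 to the surface. The subunits differed in opposite directions between the groups. Gabbr2 had 53.9 and 48.5 FPKM in PROM1 libraries and 42.8 and 33.6 FPKM in control libraries. Gabbr1 had 29.4 and 29.5 FPKM in PROM1 libraries and 41.4 and 41.3 FPKM in control libraries. Both genes separated the groups without overlap, and for Gabbr1 the 2 libraries of each group were nearly equal.

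The log2 change was 0.42 ± 0.21 for Gabbr2 with an unadjusted limma p of 0.0955, and -0.48 ± 0.18 for Gabbr1 with an unadjusted limma p of 0.0422. Neither passed after adjustment (limma adjusted p = 0.939 for both). The ratio of Gabbr2 to Gabbr1 was 1.83 and 1.64 in PROM1 libraries and 1.03 and 0.812 in control libraries, while their sum was 83.3 and 78.1 FPKM against 84.2 and 74.9 FPKM. The ratio was thus above that of both control libraries in both PROM1 libraries, and the sums overlapped. In the authors' deposited table Gabbr2 was at 60.3 FPKM in the PROM1 group and 43.4 FPKM in the control group (p-value 0.0447, q-value 0.865). Gabbr1 was at 86.9 FPKM against 101.5 FPKM in the authors' deposited table (p-value 0.308), levels far above those of any library.

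Promoters of the pair are given for comparison of the subunits, with GC boxes in capitals as before. That of Gabbr1 is chr17:37045716-37046015 on the plus strand and that of Gabbr2 is chr4:46991665-46991964 on the minus strand, both in GRCm38.p6 from RefSeq.
Gabbr1: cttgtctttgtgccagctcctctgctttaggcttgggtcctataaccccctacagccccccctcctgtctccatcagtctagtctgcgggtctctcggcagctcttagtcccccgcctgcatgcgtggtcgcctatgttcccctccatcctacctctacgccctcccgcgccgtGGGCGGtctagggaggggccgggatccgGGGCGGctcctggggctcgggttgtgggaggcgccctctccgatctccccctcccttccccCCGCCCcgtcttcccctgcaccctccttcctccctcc
Gabbr2: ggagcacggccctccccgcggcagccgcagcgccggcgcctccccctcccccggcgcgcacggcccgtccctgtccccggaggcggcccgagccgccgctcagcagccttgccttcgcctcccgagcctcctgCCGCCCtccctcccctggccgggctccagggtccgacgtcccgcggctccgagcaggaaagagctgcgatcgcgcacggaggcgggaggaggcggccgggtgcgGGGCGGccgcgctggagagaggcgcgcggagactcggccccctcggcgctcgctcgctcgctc
The Gabbr1 window is 67.3% G and C with 3 GC boxes, and the Gabbr2 window is 80.3% G and C with 2. Of the 71 receptor genes, 52 matched a symbol in the RefSeq promoter table, with 70 promoters. A GC box was found in 54.3% of these 70 and in 35.7% of all 32851 promoters of the same length. The TATA box was found in 11.4% against 13.6%, the E-box in 4.29% against 7.15%, and the cAMP response element in none of the 70 against 1.79%, counting both strands.

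GABA-A channels are built of several kinds of subunit around a chloride pore. The alpha subunits, which with the beta subunits form the GABA site, were Gabra2 (9.48 and 8.60 FPKM in PROM1 libraries, 14.7 and 7.70 FPKM in control libraries), Gabra3 (5.31 and 6.25 FPKM, against 5.19 and 4.66 FPKM) and Gabra5 (3.87 and 1.26 FPKM, against 3.06 and 2.57 FPKM). Gabra3 alone of the family separated the groups, by a log2 change of 0.19 ± 0.25 (limma adjusted p = 0.948). Gabrg3 had 3.48 and 1.19 FPKM in PROM1 libraries and 3.22 and 4.26 FPKM in control libraries. Gabra5 and Gabrg3 were both lowest in PROM1 library 2. Gabrg3 and Gabra5 are neighbours on chromosome 7 with no protein-coding gene between them in the RefSeq annotation. The family had 1 gene higher and 5 lower by group mean, with a median log2 change of -0.16, or 0.02 without PROM1 library 2.

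Of the glutamate-gated channels, the AMPA subunit Gria4 was higher in both PROM1 libraries, at 11.7 and 14.4 FPKM, against 9.60 and 8.90 FPKM in control libraries (log2 change 0.45 ± 0.23, limma adjusted p = 0.939). Gria3, another AMPA subunit, had 2.03 and 2.05 FPKM in PROM1 libraries and 1.33 and 2.61 FPKM in control libraries, with overlap. The Gria3 transcript NM_016886 was at 0.807 and 1.19 FPKM in PROM1 libraries and 0.466 and 0.296 FPKM in control libraries. In the authors' deposited table it was at 2.09 FPKM in the PROM1 group and 0.727 FPKM in the control group, with a p-value of 0.0244 and a q-value of 0.865.

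Kainate receptors were dominated by Grik5, a subunit that needs a partner such as Grik1 to form a channel. Grik4, of the same high-affinity type as Grik5, had 16.0 and 15.4 FPKM in PROM1 libraries and 17.3 and 13.5 FPKM in control libraries. Grik1, the kainate subunit typical of nociceptors, had 13.0 and 0.00719 FPKM in PROM1 libraries and 13.7 and 10.4 FPKM in control libraries. The low value in PROM1 library 2 stands apart from the 3 others. A second listed Grik1 transcript, NM_001346964, was under 0.01 FPKM in all 4 libraries. That transcript was, in the authors' deposited table, at 0.000509 FPKM in the PROM1 group and 7.28 FPKM in the control group, and NM_010348 was at 14.3 FPKM against 7.10 FPKM. Grik3 was under 0.5 FPKM in every library. None of the 3 tested kainate subunits separated the groups.

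Grin1, the subunit that all NMDA receptors contain, had 40.7 and 27.2 FPKM in PROM1 libraries and 32.0 and 25.8 FPKM in control libraries. Grin3a, a subunit that lowers calcium entry through the channel, had 5.68 and 4.93 FPKM in PROM1 libraries and 5.07 and 6.75 FPKM in control libraries. Grin1os had 2.61 and 6.31 FPKM in PROM1 libraries and 3.83 and 6.71 FPKM in control libraries. No source used here states whether the authors' counting used the strand, so reads of Grin1 and Grin1os cannot be told apart. The groups overlapped for all 3 genes.

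Metabotropic glutamate receptors were low, and the clearest separation among them was that of Grm4. Grm4, a presynaptic receptor that couples to Gi, had 1.01 and 2.09 FPKM in PROM1 libraries and 3.27 and 4.38 FPKM in control libraries. Its log2 change was -0.94 ± 0.36 (limma adjusted p = 0.939, with an unadjusted limma p of 0.0418), and in the authors' deposited table it was at 1.49 FPKM in the PROM1 group and 3.91 FPKM in the control group with a p-value of 0.0151. Both PROM1 values lay below both control values. Grm8, also presynaptic, had 6.09 and 4.70 FPKM in PROM1 libraries and 5.98 and 4.33 FPKM in control libraries. Grm3 had 5.88 and 2.74 FPKM in PROM1 libraries and 4.88 and 1.78 FPKM in control libraries, and Grm7 had 1.33 and 2.23 FPKM against 1.59 and 1.54 FPKM. Grm8 and Grm3 were higher in libraries numbered 1 than in those numbered 2 in both groups. Grm5, which couples to Gq and is often postsynaptic, had 0.965 and 0.854 FPKM in PROM1 libraries and 0.985 and 1.67 FPKM in control libraries (log2 change -0.27 ± 0.37, limma adjusted p = 0.961). It averaged 1 FPKM or more in the control group alone, so its difference is not independent of the filter on level.

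Nicotinic receptor genes went both ways at low levels. Chrnb2, the beta subunit of the common neuronal channel with Chrna4, had 9.26 and 10.1 FPKM in PROM1 libraries and 11.5 and 10.5 FPKM in control libraries. Chrna7, which can form a channel by itself, had 3.82 and 4.86 FPKM in PROM1 libraries and 5.15 and 5.43 FPKM in control libraries. Both were lower in PROM1 cultures without overlap, by log2 changes of -0.17 ± 0.22 and -0.24 ± 0.26 (limma adjusted p = 0.947 and 0.945). Chrna4 had 1.43 and 1.04 FPKM in PROM1 libraries and 1.04 and 0.528 FPKM in control libraries (log2 change 0.34 ± 0.38, limma adjusted p = 0.945). Chrnb1, a subunit of the muscle-type channel, had 2.00 and 1.46 FPKM in PROM1 libraries, was at 0.573 FPKM in control library 1 and was listed at 0 in control library 2. It had a log2 change of 1.11 ± 0.42 (limma adjusted p = 0.939, with an unadjusted limma p of 0.0426), and its mean over the 4 libraries was 1.01 FPKM, just over the level needed for testing. It met that level through the PROM1 libraries alone, as did Chrna4, so its difference is not independent of the filter. Chrna1, its muscle-type partner, was under 0.25 FPKM in every library.

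The serotonin receptor Htr3a, the subunit that every 5-HT3 channel needs, was lower in PROM1 cultures, at 3.97 and 3.76 FPKM against 6.98 and 10.2 FPKM in control libraries. Its log2 change was -0.96 ± 0.28 (limma adjusted p = 0.939, with an unadjusted limma p of 0.0155). It was at 4.53 FPKM in the PROM1 group and 10.7 FPKM in the control group of the authors' deposited table, with a p-value of 0.00635 and a q-value of 0.665. Htr3b, the partner subunit, whose gene is next to Htr3a on chromosome 9 in the RefSeq annotation, had 2.63 and 3.59 FPKM in PROM1 libraries and 1.56 and 3.08 FPKM in control libraries. The groups overlapped for Htr3b. The ratio of Htr3b to Htr3a was 0.662 and 0.956 in PROM1 libraries and 0.224 and 0.301 in control libraries, which did not overlap. The Gi-coupled receptors, which are targets of triptan drugs, were Htr1b (38.4 and 39.7 FPKM in PROM1 libraries, 51.1 and 31.0 FPKM in control libraries) and Htr1d (3.45 and 1.29 FPKM, against 2.10 and 1.82 FPKM). Neither of them separated the groups.

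**Figure D3:**
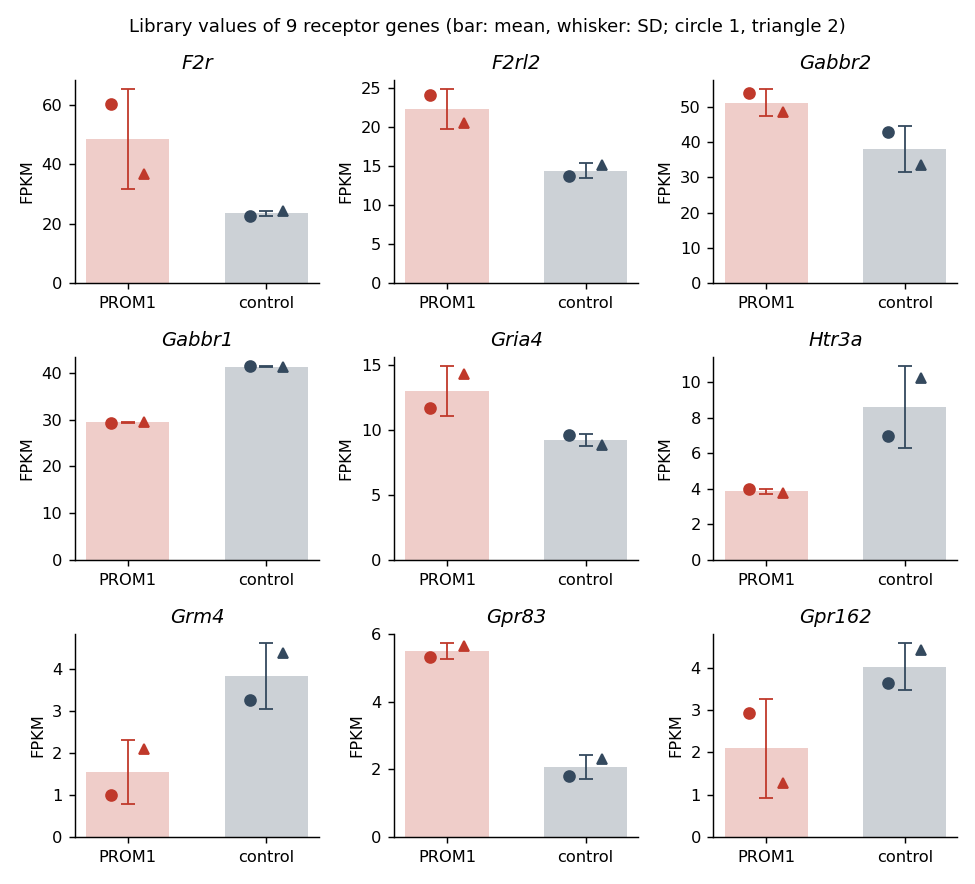
FPKM in each library (vertical axis, from 0) for 9 receptor genes, with PROM1 cultures on the left and control cultures on the right of each panel. Bars are means of 2 libraries, whiskers are SD, circles are libraries numbered 1 and triangles libraries numbered 2. The groups do not overlap in any of the 9 panels, which were chosen for that. In FPKM the spread within a group is widest for F2r in PROM1 cultures. As a ratio of the higher to the lower PROM1 library it is wider for Gpr162 (2.30) and Grm4 (2.07) than for F2r (1.645).

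Of the 38 Gpr genes, 30 were tested, and 8 were higher and 22 lower in PROM1 cultures by group mean, with a median log2 change of -0.15, or -0.05 without PROM1 library 2. The libraries of the groups did not overlap for 10 of them, 3 higher (10.0%, against 16.5% of all tested genes) and 7 lower (23.3%, against 17.5%) in PROM1 cultures. None passed the test. Summed over all 38 genes, the level was 345 and 261 FPKM in PROM1 libraries and 360 and 329 FPKM in control libraries, so PROM1 library 2 had the lowest sum. Gpr137 made up a large part of each sum.

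The 3 Gpr genes higher in PROM1 cultures without overlap were Gpr83, Gpr75 and Gpr37. Gpr83, proposed as the receptor of the neuropeptide PEN, had 5.34 and 5.67 FPKM in PROM1 libraries and 1.81 and 2.32 FPKM in control libraries. Its log2 change was 1.09 ± 0.27 (limma adjusted p = 0.939, with an unadjusted limma p of 0.0086). In these gene sums the spread within each group was small beside the gap between them. In the authors' deposited table neither of the 2 Gpr83 transcripts had a p-value under 0.05. NM_010287 was there at 4.55 FPKM in the PROM1 group and 0.349 FPKM in the control group (p-value 0.188). NM_001310734 was at 4.08 FPKM against 2.74 FPKM (p-value 0.512). Gpr75, proposed as the receptor of the lipid 20-HETE, had 11.7 and 13.6 FPKM in PROM1 libraries and 9.43 and 8.15 FPKM in control libraries (log2 change 0.48 ± 0.22, limma adjusted p = 0.939). Gpr37, a substrate of the ubiquitin ligase parkin, had 5.83 and 7.14 FPKM in PROM1 libraries and 5.30 and 5.39 FPKM in control libraries (log2 change 0.23 ± 0.24, limma adjusted p = 0.945).

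The 7 lower in PROM1 cultures without overlap were Gpr89, Gpr162, Gpr173, Gpr176, Gpr158, Gpr19 and Gpr107. Gpr89, an anion channel that sets the pH of the Golgi in mammalian cell lines, had 17.3 and 8.19 FPKM in PROM1 libraries and 22.5 and 21.3 FPKM in control libraries (log2 change -0.82 ± 0.36, limma adjusted p = 0.939). Most of that gap came from PROM1 library 2, and without it the log2 change was -0.32. Gpr162, an orphan receptor, had 2.92 and 1.27 FPKM in PROM1 libraries and 3.63 and 4.41 FPKM in control libraries (log2 change -0.75 ± 0.37, limma adjusted p = 0.939). In the authors' deposited table Gpr162 was at 3.57 FPKM in the PROM1 group and 10.4 FPKM in the control group, with a q-value of 0.0395. That control value is above both control libraries. Without PROM1 library 2 the log2 change of Gpr162 was -0.35, and without PROM1 library 1 it was -1.14.

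Gpr176, a receptor of the circadian pacemaker in the mouse brain, had 3.62 and 2.71 FPKM in PROM1 libraries and 5.20 and 4.84 FPKM in control libraries (log2 change -0.54 ± 0.27, limma adjusted p = 0.939). Gpr158, which binds glycine and anchors an RGS complex, had 3.18 and 2.23 FPKM in PROM1 libraries and 4.27 and 3.81 FPKM in control libraries (log2 change -0.45 ± 0.29, limma adjusted p = 0.939). Gpr173, related to Gpr27 and Gpr85, had 1.09 and 0.405 FPKM in PROM1 libraries and 1.66 and 1.36 FPKM in control libraries. It averaged 1 FPKM or more in the control group alone, so its difference is not independent of the filter on level. Gpr176, Gpr158 and Gpr173 were all lowest in PROM1 library 2. Gpr107, a Golgi protein, had 5.60 and 5.84 FPKM in PROM1 libraries and 6.31 and 7.93 FPKM in control libraries, and the orphan receptor Gpr19 had 5.78 and 7.77 FPKM in PROM1 libraries and 8.36 and 8.35 FPKM in control libraries. Gpr173, Gpr107 and Gpr19 had log2 changes of -0.55 ± 0.39, -0.27 ± 0.25 and -0.28 ± 0.25 (limma adjusted p = 0.939, 0.941 and 0.941).

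The abundant Gpr genes overlapped between the groups, apart from Gpr89, Gpr75, Gpr19 and Gpr107. Gpr12, a receptor that signals to adenylyl cyclase without an added ligand, had 37.0 and 16.4 FPKM in PROM1 libraries and 30.2 and 25.5 FPKM in control libraries. Its relative Gpr3 had 3.97 and 3.22 FPKM in PROM1 libraries and 5.20 and 2.51 FPKM in control libraries. Gpr12 was highest in PROM1 library 1 and lowest in PROM1 library 2. Gpr27 had 14.7 and 10.1 FPKM in PROM1 libraries and 11.3 and 16.9 FPKM in control libraries. Gpr108, a Golgi protein related to Gpr107, was among the steadiest, with 13.5 and 12.4 FPKM in PROM1 libraries and 13.2 and 12.7 FPKM in control libraries. Gpr153, a relative of Gpr162, was steady too, with 8.07 and 7.11 FPKM in PROM1 libraries and 7.59 and 8.01 FPKM in control libraries. Gpr137b had 5.97 and 8.03 FPKM in PROM1 libraries and 7.23 and 8.20 FPKM in control libraries, and Gpr137b-ps had 5.36 and 8.87 FPKM against 8.39 and 6.39 FPKM. The gene and its pseudogene are nearly identical, so the division of reads between them is uncertain.

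Other Gpr genes of known function gave overlapping values. Gpr161, a receptor of the primary cilium that holds back hedgehog signalling, had 4.15 and 4.47 FPKM in PROM1 libraries and 3.39 and 4.42 FPKM in control libraries. Gpr155, a cholesterol sensor of the lysosome in human cells, had 3.54 and 4.67 FPKM in PROM1 libraries and 3.44 and 5.60 FPKM in control libraries. A single library set the difference for the orphan receptor Gpr135. It was at 6.45 FPKM in PROM1 library 1 and listed at 0 in PROM1 library 2, against 4.22 and 6.94 FPKM in control libraries. Further tested Gpr genes were Gpr149 (6.09 and 4.96 FPKM in PROM1 libraries, 5.87 and 8.28 FPKM in control libraries) and 6 genes with means of 1.81 to 2.48 FPKM, namely Gpr137c, Gpr35, Gpr119, Gpr85, Gpr22 and Gpr21, all with overlap.

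The 10 receptor genes under the level for testing were 8 Gpr genes, Grik3 and Chrna1. Gpr165 came closest to it, with a mean of 0.946 FPKM. Gpr1, a chemerin receptor, had 0.139 and 0.226 FPKM in PROM1 libraries and 0.778 and 1.94 FPKM in control libraries. Gpr139 had 0.715 and 1.85 FPKM in PROM1 libraries, was at 0.482 FPKM in control library 1 and was listed at 0 in control library 2. These levels are low in all libraries and carry no test. Over all 71 genes, tested or not, the groups overlapped for 42, and PROM1 libraries were higher without overlap for 12 and lower for 17. The matching shares over all listed genes were not computed, so these counts have no background beside them.

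Values of single transcripts were far less steady than gene sums. Of the 15 receptor genes with more than 1 listed transcript, 3 (Gpr12, Grik1 and Grin1) had the same leading transcript in all 4 libraries. Grm8 was 1 of 2 genes whose leading transcript went with the library number in both groups. Its transcript NM_001311072 held 4.76 FPKM in PROM1 library 1 and 3.16 FPKM in control library 1, and was under 0.01 FPKM in both libraries numbered 2. The gene sum moved less than its transcripts. Gpr83 was 1 of 2 genes with 1 leading transcript in both PROM1 libraries and another in both control libraries. For Gpr83 the transcript NM_010287 was at 5.34 and 3.02 FPKM in PROM1 libraries and at 0.667 and 0.0004 FPKM in control libraries. Its lead was narrow in PROM1 library 2, where the other transcript, NM_001310734, was at 2.65 FPKM.

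In the library values, the 3 Gria4 transcripts were divided differently between the groups. NM_001113180 was at 6.46 and 7.21 FPKM in PROM1 libraries and 2.51 and 2.64 FPKM in control libraries. NM_019691 was at 0.00851 and 0.0305 FPKM in PROM1 libraries and 2.52 and 4.27 FPKM in control libraries. NM_001113181 was at 5.22 and 7.13 FPKM in PROM1 libraries and 4.58 and 1.99 FPKM in control libraries. Each of the 3 separated the groups, the NM_019691 values being lower and the others higher in PROM1 cultures. The share of all transcripts that separate the groups was not computed. None of the 3 had a p-value under 0.05 in the authors' deposited table. There NM_019691 was at 3.67 FPKM in the PROM1 group and 8.09 FPKM in the control group. That PROM1 value is far above both PROM1 libraries, so its near absence from them is not borne out there. The reads were 50 nt long and single-end, so the division among transcripts of a gene is uncertain.

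**Figure D4:**
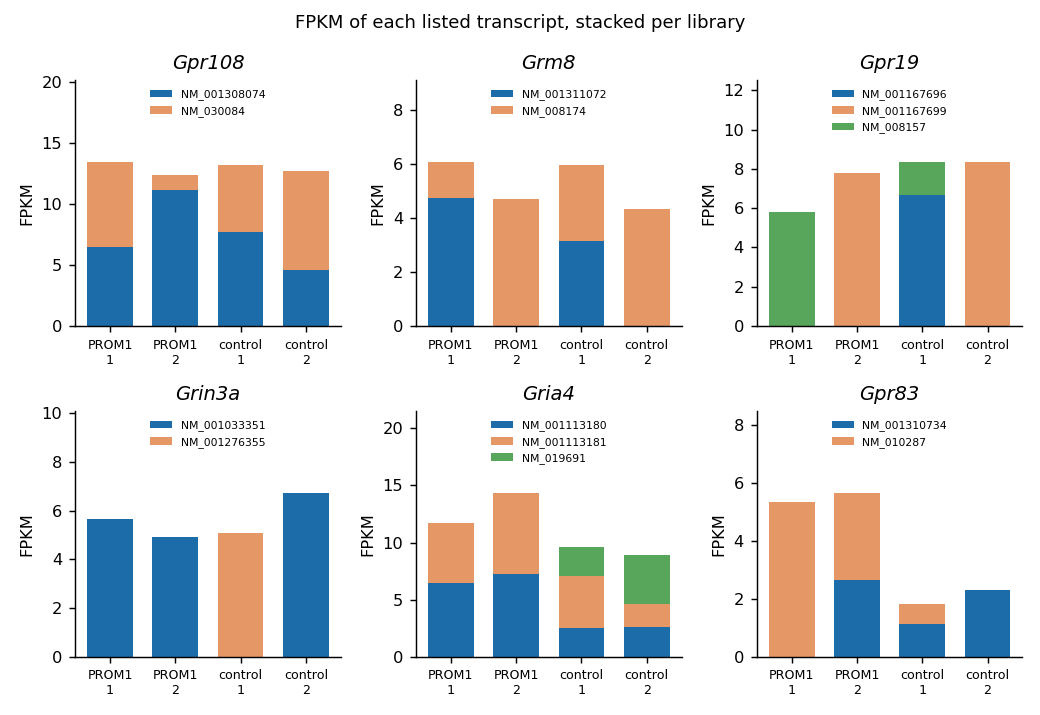
FPKM of each listed transcript (vertical axis, stacked, from 0) in each library for 6 receptor genes, with the PROM1 libraries on the left. Colours are transcripts by RefSeq accession, and the height of a bar is the gene sum. The colours trade places by library number for Grm8 and otherwise for Grin3a and Gpr108. For Gpr19 the same transcript leads in both libraries numbered 2, and a different one leads in each library numbered 1. The green transcript of Gria4 is visible in the control libraries only.

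Genes that act with these receptors were looked at in 7 lists, and none of their members passed the test either. G protein alpha subunits had 4 of 11 tested members higher and 7 lower in PROM1 cultures (median log2 change -0.05). Beta and gamma subunits had 7 of 13 higher and 6 lower (median 0.02). The gamma subunit Gng5 had 305 and 285 FPKM in PROM1 libraries and 197 and 96.3 FPKM in control libraries (log2 change 1.09 ± 0.35, limma adjusted p = 0.939). RGS proteins, which shorten G protein signals, had 4 of 10 higher and 6 lower (median -0.05), and Rgs4 had 61.1 and 47.1 FPKM in PROM1 libraries and 72.6 and 68.7 FPKM in control libraries. Receptor kinases and arrestins, which switch receptors off, had 3 of 6 higher and 3 lower (median 0.03).

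Adenylyl cyclases, which make cAMP, had 1 of 6 higher and 5 lower (median -0.11), and 3 of the 6 were lower in PROM1 cultures without overlap, against 17.5% of all tested genes. The calcium-stimulated cyclase Adcy8 had 4.45 and 6.26 FPKM in PROM1 libraries and 11.1 and 8.83 FPKM in control libraries (log2 change -0.79 ± 0.27, limma adjusted p = 0.939). Scaffolds and auxiliary subunits of the ionotropic receptors had 10 of 27 higher and 17 lower (median -0.01). Among them the postsynaptic scaffold Shank1 had 1.82 and 2.80 FPKM in PROM1 libraries and 0.648 and 0.0533 FPKM in control libraries (log2 change 1.31 ± 0.42, limma adjusted p = 0.939). Shank1 met the level for testing through the PROM1 libraries alone. The kainate receptor partners Neto1 and Neto2 went in opposite directions. Neto1 had 13.2 and 9.48 FPKM in PROM1 libraries and 15.9 and 19.0 FPKM in control libraries, and Neto2 had 59.4 and 61.4 FPKM against 44.1 and 51.0 FPKM.

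Genes for the handling of GABA and glutamate had 2 of 6 tested members higher and 4 lower (median -0.13), with 1 gene above and 4 below without overlap, against 16.5% and 17.5% of all tested genes. The vesicular glutamate transporter Slc17a7 (VGLUT1) had 23.2 and 25.3 FPKM in PROM1 libraries and 12.8 and 15.6 FPKM in control libraries (log2 change 0.73 ± 0.21, limma adjusted p = 0.939, with an unadjusted limma p of 0.0159). Slc17a6 (VGLUT2), the main form in many nociceptors, had 58.4 and 49.3 FPKM in PROM1 libraries and 58.8 and 58.9 FPKM in control libraries. VGLUT2 was the more abundant of these 2 transporters in every library. The GABA-degrading enzyme Abat had 50.7 and 56.3 FPKM in PROM1 libraries and 76.0 and 56.6 FPKM in control libraries. Both Slc17a6 and Abat were lower in PROM1 cultures by group mean.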

How the data were processed

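Polyadenylated RNA over 200 nt was sequenced as single-end reads of 50 nt, per the labels' protocols. Tools named in the submitters' processing notes are CASAVA and TopHat2, and the build named is mm9. Per the file headers, the authors deposited a Cufflinks FPKM for each library and transcript, an FPKM per group, a log2 ratio, a p-value with its −log10, a q-value and a mark for significance. No source used here names the tool behind that comparison. In the deposited table, 378 log2 ratios are very large numbers, all with a group value of 0.

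Receptor genes were taken by symbol from the descriptions of the 14236 transcripts (13995 named there, 241 by RefSeq accession). Transcripts with a missing value (39) were left out, and FPKM was summed per symbol. Genes that averaged 1 FPKM or more were tested on log2(FPKM + 1) with limma 3.58.1 (R 4.3.3, eBayes with a trend), with Benjamini-Hochberg adjustment over 10108 genes and a threshold of 0.05. FPKM holds no counts. No steps of whole reads were found (no log2 ratio between libraries was shared by more than 2.58% of low transcripts), so the depth is unknown and no counting interval was used.

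Named were tested members outside the Gpr group, the most abundant and the non-overlapping Gpr genes, and the members of each partner list with the largest changes. Further members are named to account for the rest, and some genes that the counts include are not reported here by name. Receptor genes and lists were chosen with earlier results of these data known. Promoters came from RefSeq (GRCm38.p6) and are not in the coordinates of mm9. The alternatives were other pseudocounts, level filters, scalings and transcript sets, a fit without the variance trend, a replicate block, and leaving out each library.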

Additional observations from a re-analysis of the deposited data

How the results depend on the processing

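The results were recomputed under 15 alternatives, 1 of which (symbols from the descriptions alone) was chosen after seeing the data. No receptor gene passed the threshold under any of them. For the 51 single genes followed, 23 of them receptor genes, 0 of 735 changes under alternatives were past the threshold. These 23 were chosen because their groups do not overlap, which fixes their direction when a library is left out. Of the 38 tested receptor genes whose groups overlap, 33 turned sign without at least 1 library. The libraries with the same number share only that number in the labels. Their deviations from the group means correlated with r = 0.139 over 10108 genes, and with a replicate block 0 receptor genes and 2 of all genes were called, as without it. Limits are the 2 libraries per group, the unknown depth and the division of reads among transcripts, which gene sums avoid only within the listed transcripts. With genes of at least 5 FPKM alone, 7 receptor genes were higher and 6 lower without overlap, against 10 and 13. Fewer receptor genes meet that level, so the counts are not comparable, and the shares of all genes at it were not computed. The medians of the nicotinic and serotonin families were then -0.17 and -0.49, against 0.08 and 0.04. With no filter on level the nicotinic median was -0.12. With accessions of protein-coding transcripts alone, 0 of all genes were called, against 2. Leaving out 1 library left 17 to 20 receptor genes higher and 19 to 29 lower without overlap. That criterion is looser with 3 libraries, and the matching shares over all genes were not computed. Quantile normalization gave no counts of non-overlapping genes, and genes with 1 listed transcript gave no AMPA median.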

Other observations

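Group values in the authors' deposited table do not follow from the library values. Of the 75 receptor transcripts that averaged 1 FPKM or more, 68 had the same direction in the authors' deposited table as in the library means. For 7 of the 75, a group value in the authors' deposited table was over 2 times the mean of that group's libraries. They include Gabbr1 and Gpr162. Below that level, the Gpr173 transcript NM_027543 was at 9.04 FPKM in the PROM1 group and 0.674 FPKM in the control group of the authors' deposited table. In the libraries it was at 1.02 and 0.241 FPKM in PROM1 cultures and at 1.39 FPKM and close to 0 in control cultures.

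Markers of other cells passed no test. Of 8 macrophage markers 2 were in the table. C1qb was at 0.339 and 1.16 FPKM in PROM1 libraries and 2.30 and 3.51 FPKM in control libraries, and met the level for testing through the control libraries alone. Aif1 was at 1.45 and 0.821 FPKM in PROM1 libraries, at 1.50 FPKM in control library 1 and listed at 0 in control library 2. Of 6 tested glial markers, 1 was higher and 5 were lower in PROM1 cultures by group mean, with a median log2 change of -0.15. The myelin gene Pmp22 had the largest change of the 6, with 18.8 and 20.7 FPKM in PROM1 libraries and 44.9 and 28.8 FPKM in control libraries, while Ngfr was higher without overlap (319.3 and 319.4 FPKM, against 284.1 and 260.5 FPKM), Mbp was lower without overlap, and Sox10, Gjc3 and S100b overlapped. Among related receptor genes that are neighbours in the RefSeq annotation, F2r and F2rl2 had both PROM1 libraries above both control libraries, whereas Htr3a and Htr3b differed in the sign of their mean difference.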
